A study of Mus musculus with 6 samples.

Results

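Transcript levels of 10 genes that make, bind, cross-link, sense, or degrade hyaluronan were described in the ductus arteriosus (DA) of mouse embryos at E17.5. They were chosen by gene symbol from the 23997 genes of the expression table, and all 10 were found in it. They are the hyaluronan synthases *Has1*, *Has2*, and *Has3*, the proteoglycans versican (*Vcan*) and neurocan (*Ncan*), the linkers *Hapln3* and *Tnfaip6*, the receptor *Cd44*, and the hyaluronidases *Hyal1* and *Hyal2*. Bulk RNA-Seq was carried out on DA from C57BL/6 embryos, with 3 libraries from WT embryos and 3 from *Prdm6f/f; SM22-Cre* littermates, here called KO as in the library titles. In the KO, Cre-recombinase driven by the promoter of the SM22 gene *Tagln* removes floxed *Prdm6*, which encodes a histone methyltransferase, from smooth muscle cells (SMCs) and not by design from the other cells of the DA. Neither group was treated. Whether the WT embryos carried *SM22-Cre* or a floxed allele, and whether a library came from 1 embryo or from a pool, is not given in the sources used here, so p values measure the spread between these libraries.

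Hyaluronan is a long, unsulfated sugar chain that the synthases assemble at the plasma membrane from UDP-glucuronic acid and UDP-*N*-acetylglucosamine and extrude into the matrix. Versican and the other hyalectans bind it through their amino-terminal link modules, and together they form a hydrated matrix that SMCs can enter. In the DA before birth, hyaluronan and versican fill the widened subendothelial space of the intimal cushions, into which SMCs migrate from the media, and prostaglandin E signaling through its receptor EP4 is known to raise hyaluronan synthesis through *Has2*.

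Levels are given as FPKM (fragment counts scaled to transcript length and to the size of the library), which is per length, so that levels of different genes can be set side by side. A pseudocount of 0.1 was added to FPKM, and limma compared the groups on the log2 scale over 12955 genes that averaged at least 1 FPKM. Fold changes are KO minus WT on that scale and understate the change of low genes. Before adjustment, 8.28% of these genes had a p under 0.05, and 0.00772% (1 gene) had an adjusted p under 0.05. The relative depth of the libraries, read from the steps between low values, lay between 0.929 and 1.19 times that of WT 1, and the total depth is unknown. The lowest, for WT 2, was read from 127 genes. Between 8338 (KO 2) and 11886 (WT 2) genes were listed at 0, and the summed FPKM ran from 412183 (WT 1) to 818503 (KO 2). *Prdm6* itself was at 41.7, 48.4, and 19.8 FPKM in WT 0, 1, and 2 and at 48.6, 27.1, and 15.4 FPKM in KO 0, 1, and 2 (log2 fold change -0.32, adjusted p = 0.833 from limma), so each direction rests on the deposited labels. KO 0 held both *Xist* (81.0 FPKM) and the Y-linked *Ddx3y* (26.4 FPKM). Summed over 12 SMC markers, the level was 2875 to 6144 FPKM in WT and 1118 to 2703 FPKM in KO, with 12 of 12 markers lower and none listed at 0. In bulk RNA, fewer cells of a type and less RNA per cell cannot be told apart.

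Of the 10 genes, 8 passed the filter on low values, and 5 of these were lower and 3 higher in KO. Their median log2 fold change was -0.16, against 0.072 for all genes tested. With limma, 0 of the 8 had an unadjusted p under 0.05, where the background is 8.28%, and 0 had an adjusted p under 0.05. The groups overlapped for all 8, where 16.1% of all genes tested had groups that did not overlap. The other 2 genes, *Hapln3* and *Ncan*, were below the filter and were not tested in this fit. A two-sided exact permutation test of 3 libraries against 3 cannot give a p below 0.1. Ordered by mean level, the genes ran from *Vcan* through *Cd44*, *Hyal2*, *Hyal1*, *Has1*, *Tnfaip6*, *Has3*, and *Has2* to *Hapln3* and *Ncan*, and each pair of neighbors in this order but *Vcan* and *Cd44* overlapped in range over the 6 libraries.

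**Figure D1:**
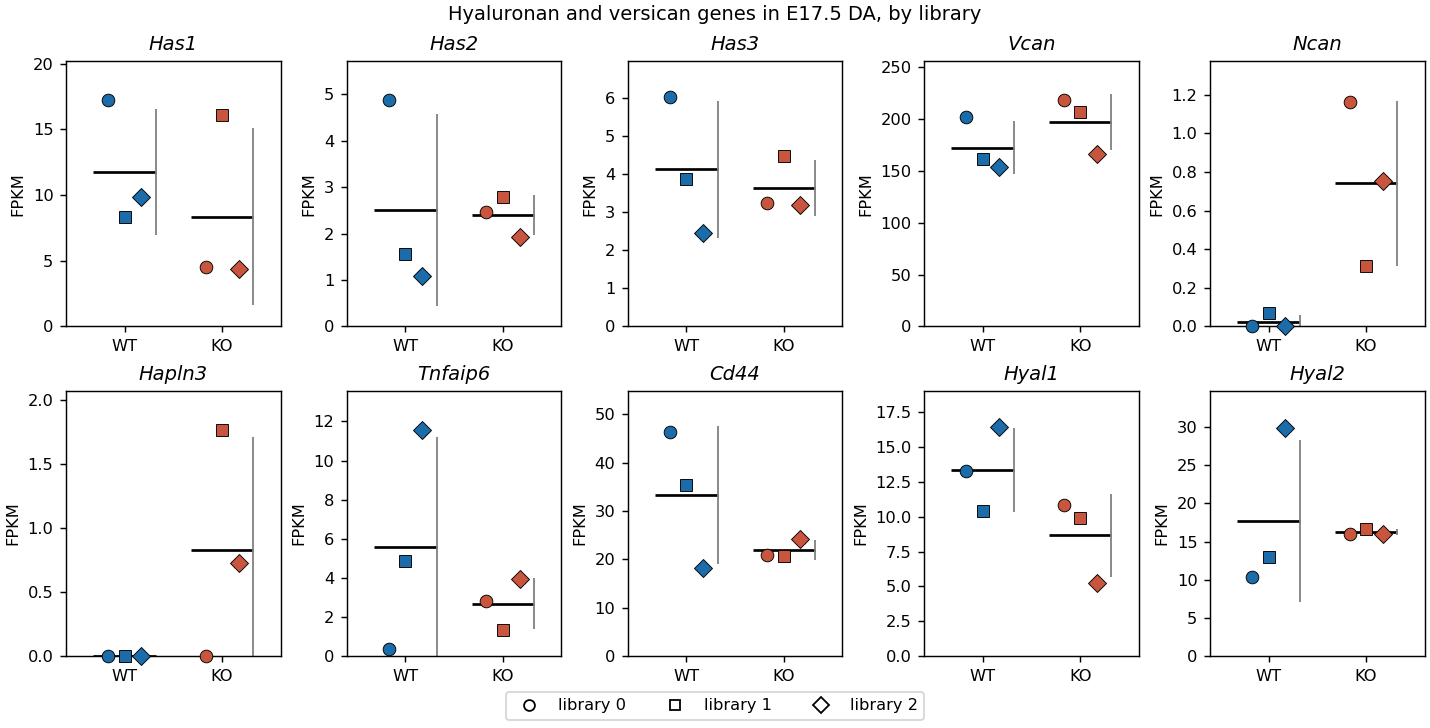
FPKM (y axis, linear, from 0, on its own scale for each gene) of the 10 hyaluronan and versican genes in WT (blue) and KO (red) libraries. Each symbol is 1 library, with circles, squares, and diamonds for libraries 0, 1, and 2. Horizontal lines are group means, and vertical lines are the SD (n = 3), with the lower end stopped at 0. The groups overlap for 9 of the 10 genes, with *Ncan* as the exception, and 4 genes are highest in WT 0 while 3 are highest in WT 2.

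*Has2* and *Has3* had the lowest mean levels of the 8 tested genes, and none of the 3 synthases differed between the groups beyond the spread of its libraries. *Has1* (chromosome 17 of GRCm38 from 17843323 to 17855205) was at 17.2, 8.29, and 9.81 FPKM in WT and at 4.53, 16.1, and 4.40 FPKM in KO. KO 0 and KO 2 lay below every WT library, whereas KO 1 lay between the WT values, so the groups overlapped. Its log2 fold change was -0.70 (SE 0.56, 95% CI -2.01 to 0.61, adjusted p = 0.724 from limma). Its size rested on single libraries. It was -1.31 without KO 1 (unadjusted p = 0.0266, adjusted p = 0.871 from limma), but -0.39 without WT 0, -0.40 without KO 0, and -0.38 without KO 2. KO 1 also had the highest summed level of 9 erythroid markers (24408 FPKM, against 3881 to 12678 FPKM in the other libraries) and of 10 endothelial markers (615 FPKM, against 332 to 566 FPKM). Of these lists, 8 of 8 tested erythroid markers and 6 of 10 endothelial markers were higher in KO, and of the abundant globins *Hba-a2* was listed at 0 in all 6 libraries. The part of these cells in the *Has1* level was not tested.

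*Has2* (chromosome 15 from 56665627 to 56694539), the synthase required for heart cushion formation in the mouse embryo, was at 4.88, 1.56, and 1.08 FPKM in WT and at 2.46, 2.78, and 1.93 FPKM in KO. The 3 KO values lay inside the WT range, which spanned 4.52-fold. The log2 fold change of 0.21 (SE 0.74, 95% CI -1.50 to 1.92, adjusted p = 0.941 from limma) turned negative when WT 2 was left out (-0.22), so no direction can be given. The antisense gene *Has2os*, which overlaps *Has2* by 4596 bases, was listed at 0 in all 6 libraries. *Has3* (chromosome 8 from 106870242 to 106884566) was at 6.04, 3.87, and 2.46 FPKM in WT and at 3.23, 4.49, and 3.18 FPKM in KO. All 3 KO values again lay inside the WT range, and the log2 fold change was -0.10 (SE 0.51, 95% CI -1.29 to 1.08, adjusted p = 0.959 from limma). It was 0.21 without WT 0. The end of *Has3* overlaps *Chtf8* on the other strand by up to 704 bases, and whether the counting used strand is not given in the sources used here, so reads in the overlap are uncertain.

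Summed, the 3 synthases reached 28.2, 13.7, and 13.4 FPKM in WT and 10.2, 23.4, and 9.51 FPKM in KO. WT 0 and KO 1 stood highest, 1 library of each group. These were also the libraries with *Xist* (67.0 and 82.8 FPKM) and little or no *Ddx3y* (0 and 0.383 FPKM), whereas KO 0, which held both, had a low sum. The part of sex in the synthase levels was not tested. *Has1* made up 60.4% to 73.5% of the sum in WT and 44.3% to 68.9% in KO, and was the most abundant synthase in all 6 libraries. *Has2* made up 8.07% to 17.3% in WT and 11.9% to 24.1% in KO, which overlap.

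**Figure D2:**
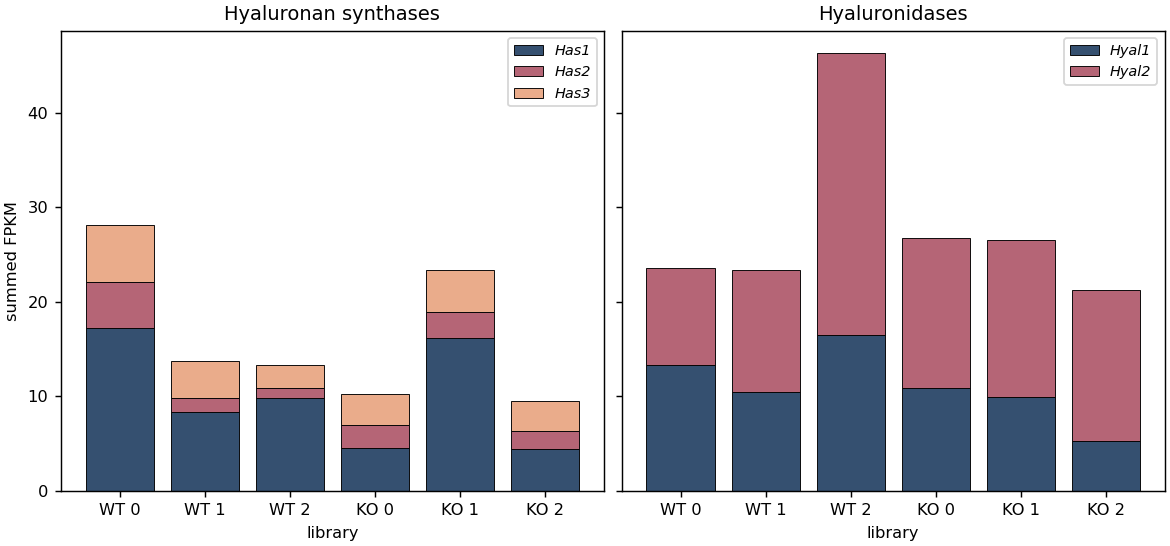
Summed FPKM (y axis, linear, from 0) of the hyaluronan synthases (left) and of the hyaluronidases *Hyal1* and *Hyal2* (right) in each library (x axis), with the stacked segments giving each gene's level in that library. The synthase sum is highest in WT 0 (28.2 FPKM) and KO 1 (23.4 FPKM), and the hyaluronidase sum is highest in WT 2 (46.3 FPKM).

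*Vcan* (chromosome 13 from 89655312 to 89742509), the core protein of the large chondroitin sulfate proteoglycan of the cushions, was by far the most abundant of the 10 transcripts and lay above 97.99% of all genes tested. Its level was 202, 162, and 154 FPKM in WT and 219, 207, and 167 FPKM in KO. KO 0 and KO 1 were the highest of the 6 libraries, and KO 2 lay between the WT values. The mean was 173 ± 25.4 FPKM (SD, n = 3) in WT and 198 ± 27.2 FPKM (SD, n = 3) in KO. This is a log2 fold change of 0.20 (SE 0.18, 95% CI -0.23 to 0.62, adjusted p = 0.748 from limma), the smallest SE among the 8 genes tested. The value was 0.12 without WT 2 or KO 0, 0.31 without WT 0 or KO 2, and 0.39 with quantile normalization (unadjusted p = 0.0722 from limma). The difference is smaller than the spread between libraries, and the interval runs from a 0.851-fold to a 1.54-fold level in KO.

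*Ncan* (chromosome 8 from 70093085 to 70120873), a hyalectan best known from brain matrix, was near the bottom of the range. It was listed at 0, 0.0672, and 0 FPKM in WT and at 1.16, 0.311, and 0.751 FPKM in KO. Every KO library lay above every WT library, the sole such case among the 10 genes (exact permutation p = 0.1, two-sided). With no filter on low values, *Ncan* belongs to the 7.48% of 16953 genes that were higher in KO without overlap. In that fit limma gave an unadjusted p of 0.0129, where 3.51% of genes were higher with an unadjusted p under 0.05, and an adjusted p of 0.563. Since WT 0 and WT 2 are listed at 0, a fold is left out. These libraries also had the most genes listed at 0 (10313 in WT 0 and 11886 in WT 2), so low detection and absence cannot be told apart there. Summed Schwann cell and neuron markers were also higher in KO. Among the KO libraries, *Ncan* was highest in KO 0 and lowest in KO 1. The Schwann cell sum was lowest in KO 0 and highest in KO 2, and the neuron sum was lowest in KO 1 and highest in KO 2. Of 10 Schwann cell markers, 9 were higher in KO, with sums of 16.9 to 40.3 FPKM in WT and 49.5 to 180.0 FPKM in KO, and *Gfra3* was listed at 0 in WT 1 and WT 2. Of 10 neuron markers, the 7 tested were all higher in KO, with sums of 16.1 to 25.1 FPKM in WT and 51.7 to 66.4 FPKM in KO, and *Th* was listed at 0 in all 3 WT libraries. Their part in the *Ncan* level was not tested.

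*Vcan* made up 81.6% to 89.7% of the summed level of the hyalectan genes *Vcan*, *Acan*, *Ncan*, and *Bcan* in the 6 libraries. *Acan*, which encodes aggrecan, was the next highest at 25.6, 26.4, and 34.9 FPKM in WT and 29.6, 44.8, and 18.4 FPKM in KO, with a log2 fold change of 0.015 (adjusted p = 0.989 from limma).

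Promoter sequence was compared for letters that some vascular and neural crest transcription factors recognize. Of the 10 genes, 8 have an entry in the RefSeq promoter table of GRCm38.p6. The 250 bases before the start are shown, read 5′ to 3′ on the strand of the gene, for *Has1* as the most abundant synthase (chr17:17855189-17855438, minus strand), for *Vcan* as the most abundant gene (chr13:89742513-89742762, minus strand), and for *Ncan* as the gene whose groups did not overlap (chr8:70120845-70121094, minus strand). Capitals mark matches, on either strand, to the AP-2 motif GCCNNNGGC, the TCF/LEF motif CTTTGA, the SOX motif ACAATG, the TATA box TATAAA, or the CArG box of serum response factor.
Has1: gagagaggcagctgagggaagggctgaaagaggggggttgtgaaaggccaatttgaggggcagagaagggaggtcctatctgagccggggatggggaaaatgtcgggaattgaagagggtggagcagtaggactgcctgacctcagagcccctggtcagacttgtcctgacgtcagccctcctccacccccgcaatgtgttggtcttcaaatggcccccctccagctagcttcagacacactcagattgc
Vcan: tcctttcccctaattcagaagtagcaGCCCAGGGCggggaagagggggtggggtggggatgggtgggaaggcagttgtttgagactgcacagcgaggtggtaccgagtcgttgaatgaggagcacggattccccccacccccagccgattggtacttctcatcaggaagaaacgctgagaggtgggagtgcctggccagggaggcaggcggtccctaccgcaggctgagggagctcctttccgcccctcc
Ncan: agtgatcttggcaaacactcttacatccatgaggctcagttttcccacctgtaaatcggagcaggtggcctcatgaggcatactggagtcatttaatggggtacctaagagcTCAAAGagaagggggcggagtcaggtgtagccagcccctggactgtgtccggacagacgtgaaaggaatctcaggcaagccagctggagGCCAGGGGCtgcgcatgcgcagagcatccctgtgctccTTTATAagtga

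*Has1* holds none of these letters in this window. *Vcan* holds an AP-2 match 224 bases before the start, and *Ncan* holds one 49 bases before it. On the strand opposite to the one printed, *Ncan* also holds TCF/LEF letters 138 bases and TATA box letters 11 bases before the start. With *Hyal1*, 3 of the 8 promoters hold the AP-2 letters, as do 13.7% of 32851 promoters in the table. The fixed letters of the AP-2 and GC box motifs are all G or C. These 3 promoters held 62.4% (*Vcan*), 56% (*Hyal1*), and 54.4% (*Ncan*) G and C, beside a median of 52.4% in the table. Enrichment was not tested. TCF/LEF letters are in 1 of the 8 (13.8% of all), TATA box letters in 2 (12.4%), SOX letters in 0 (10.7%), and the CArG box in 0 (1.47%). The TATA box letters were counted on either strand and at any place in the window, so they need not be working TATA boxes. In *Hapln3* they lie 239 bases before the start. The GC box GGGCGG, which is not in capitals, is in 5 of the 8 (32.7%). In *Vcan* it matches 219 and 10 bases before the start, and the match at 219 overlaps the AP-2 match. A match describes the letters and is not a measured binding site.

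The linkers were at low levels. *Hapln3* (chromosome 7 from 79115102 to 79131018), a link protein that holds versican on hyaluronan, was listed at 0 in all 3 WT libraries and at 0, 1.76, and 0.724 FPKM in KO. KO 0 shared the value of the WT libraries, and a fold is left out. *Tnfaip6* (chromosome 2 from 52038009 to 52056686) encodes TSG-6, which transfers heavy chains onto hyaluronan. It was at 0.360, 4.85, and 11.5 FPKM in WT and at 2.80, 1.33, and 3.94 FPKM in KO. The WT values spanned 32.0-fold, with the lowest and the highest of the 6 libraries both in WT. Its log2 fold change of -0.22 (SE 1.17, 95% CI -2.95 to 2.51, adjusted p = 0.963 from limma) had the widest interval of the 8 genes tested and turned positive without WT 1 (0.14), WT 2 (0.76), or KO 1 (0.20).

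*Cd44* (chromosome 2 from 102811141 to 102901665), the main cell surface receptor for hyaluronan, was at 46.4, 35.3, and 18.2 FPKM in WT and at 20.8, 20.7, and 24.2 FPKM in KO. WT 0 and WT 1 lay above every KO library, and WT 2 lay below all of them. The KO libraries differed among themselves by 1.17-fold and the WT libraries by 2.55-fold. The log2 fold change was -0.50 (SE 0.34, 95% CI -1.29 to 0.28, adjusted p = 0.688 from limma). WT 2 decides this value. Without it the log2 fold change was -0.89 with an unadjusted p of 0.0041, which did not pass the adjusted threshold (adjusted p = 0.498 from limma), and without WT 0 it was -0.21.

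The hyaluronidases *Hyal2* (chromosome 9 from 107567945 to 107572779), which is anchored at the cell surface, and *Hyal1* (chromosome 9 from 107576927 to 107581710), which works in lysosomes, are neighbors on the same strand with 4147 bases between them. *Hyal1* was at 13.3, 10.4, and 16.4 FPKM in WT and at 10.8, 9.89, and 5.24 FPKM in KO. KO 1 and KO 2 were the lowest of the 6 libraries, and KO 0 lay just above WT 1. The log2 fold change was -0.66 (SE 0.36, 95% CI -1.51 to 0.18, adjusted p = 0.649 from limma). Without KO 2, it was -0.34. *Hyal1* shares 2824 bases of its span with *Naa80* and 893 bases with *Hyal3* on the same strand, so its level is uncertain where the counting could split these reads. *Naa80*, listed under its older symbol *Nat6*, was at 8.72, 12.3, and 12.3 FPKM in WT and at 6.87, 9.15, and 5.87 FPKM in KO.

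*Hyal2* was at 10.3, 12.9, and 29.9 FPKM in WT and at 15.9, 16.6, and 16.0 FPKM in KO. The 3 KO libraries were within 1.04-fold of each other and lay between WT 1 and WT 2. The log2 fold change was 0.03 (SE 0.39, 95% CI -0.88 to 0.94, adjusted p = 0.984 from limma), and its sign turned with WT 0 (-0.28) or WT 1 (-0.12) left out. *Hyal2* exceeded *Hyal1* in all libraries but WT 0. The ratio of the synthase sum to the hyaluronidase sum was 1.19, 0.588, and 0.288 in WT and 0.382, 0.882, and 0.447 in KO. The WT libraries held both the highest and the lowest ratio.

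The libraries of 1 group often stood far apart. *Has1*, *Has2*, *Has3*, and *Cd44* were highest in WT 0, and *Hyal1*, *Hyal2*, and *Tnfaip6* were highest in WT 2. The SMC marker sum was 6144 FPKM in WT 0 and 2875 FPKM in WT 2. Conversely, WT 2 had the highest sums of 8 fibroblast markers (6347 FPKM, against 2418 to 5252 FPKM in the other libraries), of 9 macrophage and leukocyte markers (50.6 FPKM, against 14.5 to 43.1 FPKM), and of 9 epithelial and mesothelial markers (236 FPKM, against 67.9 to 205 FPKM). Of the tested markers in these lists, 5 of 8, 4 of 7, and 2 of 7 were lower in KO, and *Ptprc*, *Epcam*, and *Cdh1* were listed at 0 in WT 2. The part of these cells in the levels of the hyaluronan genes was not tested. The SD on the log2 scale was wider in WT than in KO for 5 of the 8 tested genes (62.5%), beside 62.6% of all genes tested, so a wider spread in WT was as common among all genes. Its size differed, with a median SD of 0.661 in WT and 0.265 in KO for the 8 genes. Over all genes tested, the median SD was 0.49 in WT and 0.374 in KO.

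**Figure D3:**
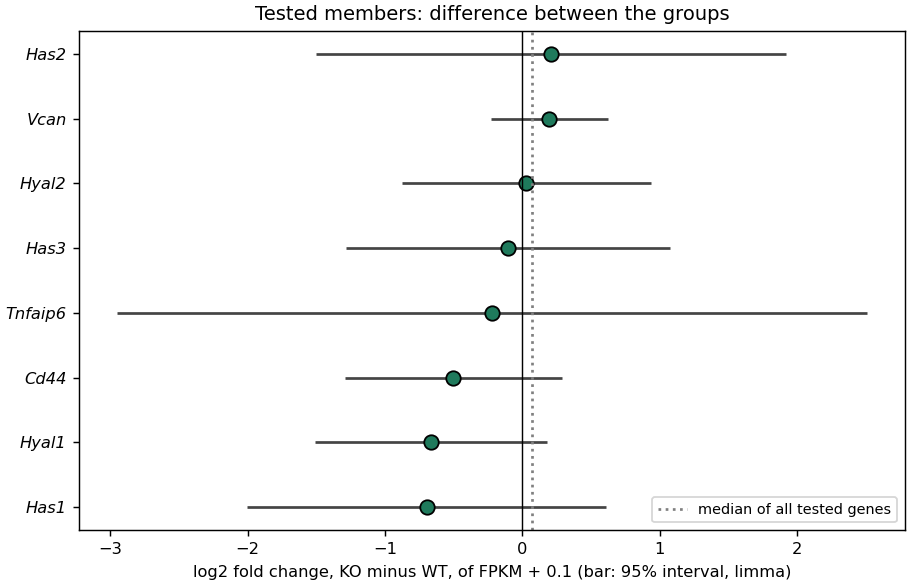
Log2 fold change (KO minus WT, of FPKM + 0.1, x axis) of the 8 tested hyaluronan and versican genes, with the 95% CI from limma as horizontal bars. All 8 intervals cross 0, from *Vcan* with the narrowest (-0.23 to 0.62) to *Tnfaip6* with the widest (-2.95 to 2.51).

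The wider genes of hyaluronan and versican metabolism gave a count near the background. Of 94 genes in 10 lists, 73 were tested, with 4 lower and 4 higher at an unadjusted p under 0.05. This is 5.48% in each direction, beside 4.97% lower and 3.31% higher over all genes tested. None of the 73 had an adjusted p under 0.05 with limma. The groups did not overlap for 7 that were lower (9.59%, beside 7.84% of all genes) and 5 that were higher (6.85%, beside 8.21%). The median log2 fold change of the 73 genes was 0.089.

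Among signals known to act on DA cushions, *Ptger4*, which encodes the prostaglandin receptor EP4, had the largest difference. It was at 32.4, 22.8, and 21.8 FPKM in WT and at 5.10, 5.51, and 7.61 FPKM in KO. Every KO library lay well below every WT library, with a log2 fold change of -2.06 (SE 0.29, unadjusted p = 0.00012, adjusted p = 0.172 from limma). *Tgfb2*, a transforming growth factor, was at 55.7, 60.7, and 51.5 FPKM in WT and at 44.9, 26.3, and 24.0 FPKM in KO, again without overlap (log2 fold change -0.87, adjusted p = 0.535 from limma). Neither passed the adjusted threshold, and 7.84% of all genes tested were lower without overlap. The 12 SMC markers were also all lower, 7 of them without overlap, with a median log2 fold change of -1.34. The part of SMCs in the *Ptger4* and *Tgfb2* levels was not tested. Over the 10 tested genes of this list, 5 were lower and 5 higher, with a median of -0.14. *Hif1a*, its most abundant gene, had a log2 fold change of 0.09 (adjusted p = 0.901 from limma). *Has2*, the synthase linked to EP4 in background knowledge, overlapped between the groups as given above.

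Enzymes that supply or sulfate the sugar chains had medians near 0 with members on both sides, in unequal numbers. Of the 8 UDP-sugar precursor enzymes, 6 were lower (75%, beside 44.4% of all genes tested). Of the 21 tested chondroitin sulfate chain enzymes, 6 were lower (28.6%) and 15 higher. The 8 UDP-sugar precursor enzymes had a median log2 fold change of -0.08, and their most abundant gene *Uap1* had one of -0.29 (adjusted p = 0.699 from limma). The 21 tested chondroitin sulfate chain enzymes had a median of 0.13, and 0 had an unadjusted p under 0.05 in limma. *Chsy1*, which polymerizes the chondroitin chain, was their most abundant gene (log2 fold change 0.13, adjusted p = 0.823 from limma). *Chst15*, which adds a further sulfate to the chain, was at 7.73, 8.28, and 2.19 FPKM in WT and at 13.1, 13.8, and 9.58 FPKM in KO. Its groups did not overlap, and its log2 fold change of 1.19 had an adjusted p of 0.609 from limma. Without WT 2, its lowest library, it was 0.58. *Chst12*, another sulfotransferase gene, was lower without overlap (log2 fold change -0.53, unadjusted p = 0.0835 from limma), and is named after its values were seen.

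Hyaluronan can also be degraded or bound by other proteins. Of 5 tested degrading enzymes, 4 were higher, and 2 of these (40% of the list, beside 3.31% of all genes tested) had an unadjusted p under 0.05. Of all genes tested, 44.4% were lower. *Tmem2*, a cell surface hyaluronidase, was at 17.8, 21.3, and 17.9 FPKM in WT and at 27.9, 27.5, and 28.7 FPKM in KO (log2 fold change 0.56, SE 0.19, adjusted p = 0.545 from limma). Every KO library of *Tmem2* lay above every WT library. *Hexa*, the most abundant gene of this list by its mean, had a log2 fold change of -0.24 (adjusted p = 0.832 from limma). It was at 21.1, 22.9, and 53.1 FPKM in WT and at 24.1, 27.8, and 23.1 FPKM in KO. WT 2 was the highest library, whereas WT 0 and WT 1 lay below every KO library. Of the 6 other receptors tested, *Hmmr* had a log2 fold change of 0.70 (adjusted p = 0.594 from limma) without overlap (0.39 without WT 2), and *Lyve1*, the most abundant, ranged from 8.40 to 54.4 FPKM within WT. *Hmmr* is also a mitotic spindle gene. Of the heavy chain and cross-linking genes, *Itih5* was the most abundant (log2 fold change -0.27, adjusted p = 0.845 from limma), and *Ptx3* had a log2 fold change of 3.18 (SE 1.19, unadjusted p = 0.0299, adjusted p = 0.584 from limma), although KO 0 (3.50 FPKM) lay below WT 1 (3.74 FPKM).

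**Figure D4:**
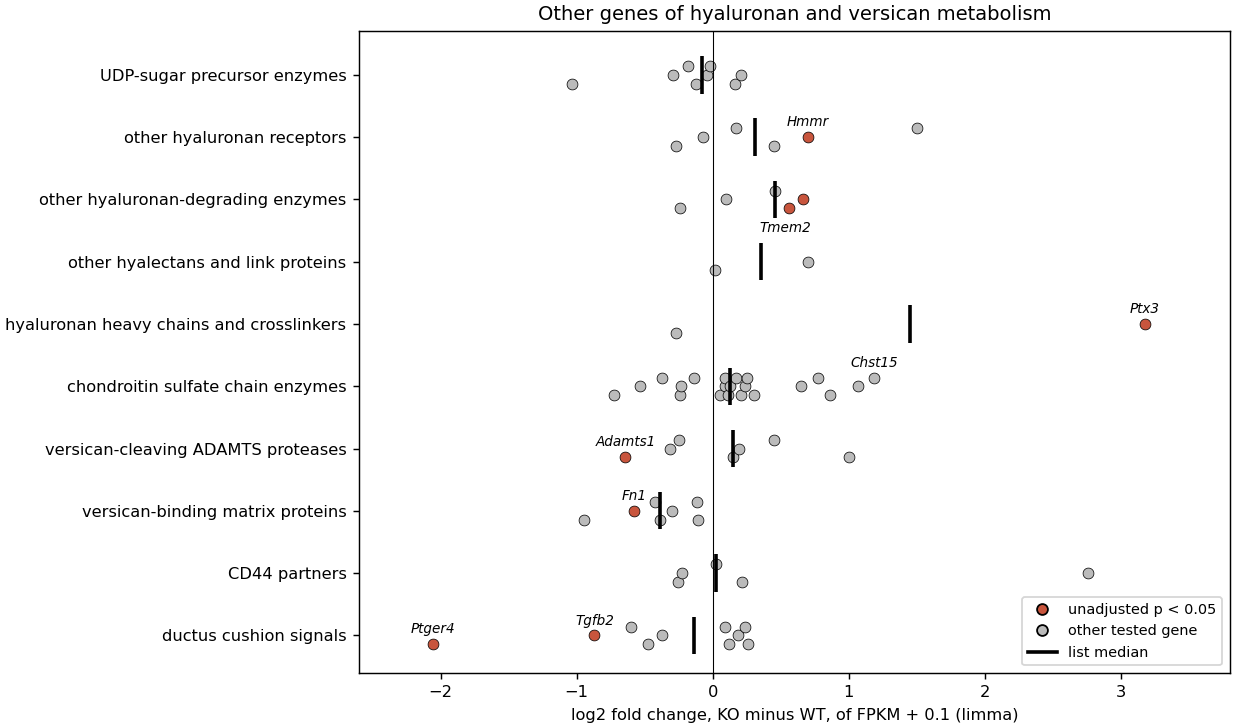
Log2 fold change (KO minus WT, of FPKM + 0.1, x axis) of the 73 tested genes in 10 lists of hyaluronan and versican metabolism (rows). Each point is 1 gene, red points have an unadjusted p under 0.05 in limma, and black bars are list medians. Labels name 7 of the 8 red points and *Chst15*, whose groups did not overlap. *Ptger4* at -2.06 lies farthest to the left and *Ptx3* at 3.18 farthest to the right, and points lie on both sides of 0 in every list but the versican-binding matrix proteins (7 of 7 lower) and the other hyalectans and link proteins (2 of 2 higher).

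Of the proteases that cleave versican, *Adamts1* was the most abundant, at 115, 99.3, and 87.8 FPKM in WT and at 77.5, 66.4, and 51.0 FPKM in KO. The groups did not overlap (log2 fold change -0.64, SE 0.20, unadjusted p = 0.0145, adjusted p = 0.545 from limma), and 7.84% of all genes tested were lower without overlap. The SMC marker sum had the same order of libraries (6144, 3192, and 2875 FPKM in WT, 2703, 2057, and 1118 FPKM in KO). The part of SMCs in the *Adamts1* level was not tested. The 7 tested proteases had a median of 0.15, with 3 lower and 4 higher. *Adamts5* went the other way, at 14.6, 20.6, and 18.1 FPKM in WT and at 24.1, 23.9, and 24.2 FPKM in KO. It was higher without overlap (log2 fold change 0.45, unadjusted p = 0.0663 from limma), as were 8.21% of all genes tested, and is named after its values were seen. The ratio of *Vcan* to *Adamts1*, chosen after the values were seen and given as a description, was 1.76, 1.63, and 1.76 in WT and 2.82, 3.12, and 3.27 in KO. The ratios did not overlap between the groups, but *Adamts1* alone did not overlap either, so the ratio is no further support.

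**Figure D5:**
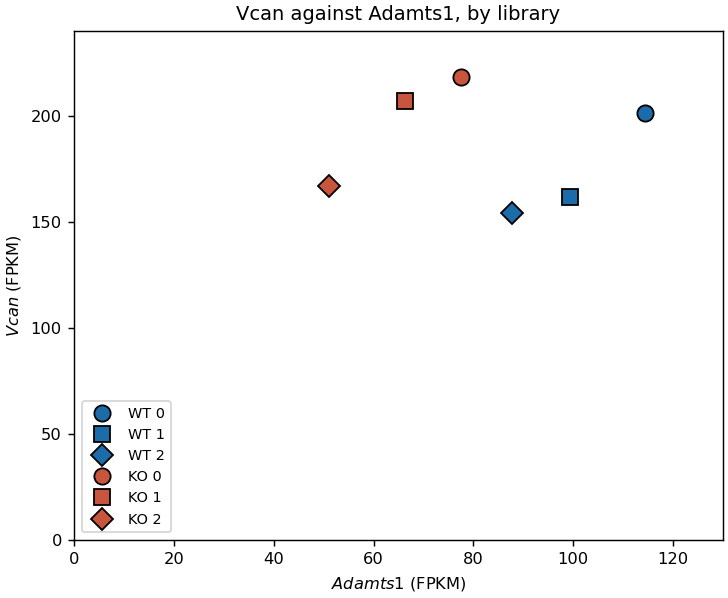
*Vcan* FPKM (y axis) against *Adamts1* FPKM (x axis), both linear, in the 3 WT and 3 KO libraries, 1 point a library. The KO points lie to the left of the WT points at 51.0 to 77.5 FPKM of *Adamts1*, while their *Vcan* levels (167 to 219 FPKM) overlap those of WT (154 to 202 FPKM).

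All 7 tested versican-binding matrix proteins had a negative log2 fold change, beside 44.4% of all genes tested, with a median of -0.39. The groups did not overlap for 2 of them (28.6%, beside 7.84% of all genes that were lower without overlap). *Fn1*, which encodes fibronectin, was at 1381, 1063, and 1044 FPKM in WT and at 630.4, 967, and 759 FPKM in KO, the highest level of any gene in these lists (log2 fold change -0.58, SE 0.24, unadjusted p = 0.047, adjusted p = 0.6 from limma). Among the CD44 partners, whose 5 tested genes had a median of 0.02, the membrane protease gene *Mmp14* was the most abundant (log2 fold change -0.23, adjusted p = 0.688 from limma). Its groups did not overlap (199 to 213 FPKM in WT, 158 to 191 FPKM in KO). It was the 1 gene of these 5 that was lower without overlap (20%, beside 7.84% of all genes tested). The SMC marker sum was also lower without overlap (2875 to 6144 FPKM in WT, 1118 to 2703 FPKM in KO, 12 of 12 markers lower). The fibroblast marker sum was 3241 to 6347 FPKM in WT and 2418 to 5252 FPKM in KO, with 5 of its 8 markers lower and none listed at 0. The part of these cells in the levels of the matrix genes was not tested.

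The genes whose levels followed each gene most closely were read from the root mean square difference of log2(FPKM + 0.1), each gene centered on its mean, over the 6 libraries and 9121 or 9122 genes of at least 5 FPKM. For *Vcan* these were *Thap4* (0.034), the ribosomal protein gene *Rps4x* (0.059), and *M6pr* (0.065), which encodes a mannose 6-phosphate receptor. For *Cd44* they were *U2af1* (0.110), *Dysf* (0.113), and *Foxc2* (0.124). For *Has2* they were *Eef1e1* (0.196), *Rasa2* (0.238), and *Hoxa2* (0.239). The difference is not scaled to the spread of a gene, so it cannot be compared between *Vcan*, *Cd44*, and *Has2*. Their SD on the log2 scale in WT was 0.206, 0.692, and 1.09. Likeness over 6 libraries describes these levels, and libraries share depth and cell makeup.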

How the data were processed

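Bulk RNA-Seq libraries of E17.5 mouse DA (3 WT, 3 KO) were grouped and numbered from their titles. Reads were trimmed and mapped to mm10 by the authors using TopHat2, and Cufflinks and Cuffdiff gave the FPKM that they deposited, 1 value for each gene and library. Versions, annotation, strand use, and scaling between libraries are not given in the sources used here. FPKM holds no counts, so no counting interval was computed, the total depth is unknown, and an exact 0 can be a failed estimate.

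From these values, log2(FPKM + 0.1) was fitted for genes with a mean of at least 1 FPKM with limma 3.58.1 in R 4.3.3 (lmFit, eBayes with trend, two-sided, Benjamini-Hochberg, threshold 0.05), which was tested on simulated data. Exact permutation tests used the 20 assignments of 6 libraries. Cuffdiff was not repeated. Gene spans came from GENCODE vM21 and promoters from RefSeq. Alternatives changed the pseudocount, filter, scaling, or variance trend, added a replicate block, or omitted each library. Named genes are the 10 chosen genes, listed genes with an unadjusted p under 0.05, listed genes without overlap between groups and an absolute log2 fold change of at least 1, the most abundant gene of each list, and the 3 nearest genes by likeness. The chosen genes and lists were set with earlier results of these data known. Some genes of the lists enter the counts but are not reported here by name.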

Additional observations from a re-analysis of the deposited data

How the results depend on the processing

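In each of 16 alternatives, 0 of the 10 genes that had a value there had an adjusted p under 0.05, and *Vcan* stayed positive while *Has1*, *Cd44*, and *Hyal1* stayed negative. Signs turned for *Has2* with quantile normalization (-0.25) and without WT 2 (-0.22), for *Has3* without WT 0 (0.21), for *Hyal2* without WT 0 (-0.28), without WT 1 (-0.12), and without WT 1 and KO 2 together (-0.11), and for *Tnfaip6* without WT 1 (0.14), WT 2 (0.76), or KO 1 (0.20). With each library omitted in turn, the log2 fold change lay between -1.31 and -0.38 for *Has1*, -0.22 and 0.82 for *Has2*, -0.42 and 0.21 for *Has3*, -0.28 and 0.48 for *Hyal2*, and -1.57 and 0.76 for *Tnfaip6*. The cause was not tested. A filter of 5 FPKM leaves out *Has2*, *Has3*, *Tnfaip6*, *Hapln3*, and *Ncan*, which have no value there. WT 1 and KO 2 had the highest heart muscle marker sums of their groups, and leaving both out was chosen after seeing the data, as were all counts for the wider lists.

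The count of genes past the filter with an unadjusted p under 0.05 went from 0 to 1 with a mean FPKM of at least 0.1 and with no filter (*Ncan* in both, admitted at 0.1 FPKM only through its KO values, so the added call is no support), and lay between 0 and 1 when single libraries were omitted (*Cd44* without WT 2, *Has1* without KO 1). Among the genes tested, the count without overlap between groups was 0 and became 1 under both filters (*Ncan*), 2 without WT 1 and KO 2, and 1 to 3 when single libraries were omitted, where fewer libraries leave less room to overlap. For the wider lists, 4 lower genes became 2 without the variance trend, 1 without WT 1 and KO 2, and 3 (without WT 0 or KO 2) to 8 (without KO 1) when single libraries were omitted. The 4 higher genes became 1 (without KO 1 or KO 2) to 8 (without WT 1), with 2 without WT 0 or KO 0. *Ptger4* ranged from -2.30 to -1.88 over all alternatives.

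Libraries that share a number did not deviate together, with correlations of 0.12, -0.08, and -0.01 over 12955 genes, and WT 0 correlated best with its own number, KO 0, but WT 1 with KO 2 and WT 2 with KO 1. With a replicate block, 1118 genes had an unadjusted p under 0.05 instead of 1073, and 1 gene in each fit had an adjusted p under 0.05. Of the 8 genes past the filter, 0 had an unadjusted p under 0.05 with the replicate block, as without it. With no filter, the unadjusted p of *Ncan* from limma was 0.0427 with the block and 0.0129 without. That of *Hapln3* was 0.0667 with all libraries and 0.0018 without KO 0 (adjusted p = 0.228 from limma). *Hapln3* was listed at 0 in every WT library and, among the KO libraries, only in KO 0. Omitting KO 0 thus lowers the p by construction, and the value is no support. The 95% CI of each tested gene but *Vcan* and *Hyal2* reached below a log2 fold change of -1, so a difference of that size is not excluded for those genes.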
